A study of Aquilegia coerulea with 32 samples.

Results

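The 7 loci described here are the MADS-box genes of *Aquilegia coerulea* whose symbols begin with *AqSEP*, *AqAGL6* or *AqFL* among the 20 type-II MADS-box loci that the study displayed together, out of 30023 transcripts in the deposited files. They were taken by locus identifier: *AqSEP1* (*Aqcoe3G065400*), *AqSEP2a* (*Aqcoe3G374100*), *AqSEP2b* (*Aqcoe3G373700*), *AqSEP3* (*Aqcoe5G352300*), *AqAGL6* (*Aqcoe7G053700*), *AqFL1* (*Aqcoe3G374000*) and *AqFL2* (*Aqcoe3G373600*). Their RNA was measured in young axillary floral buds at 4 successive stages, with 8 libraries per stage. All plants were wild type of the cultivar 'Kiragami' and had passed through a cold period (vernalization) before flowering, and 3 sepals had been removed from each bud. At s1 stamen primordia were initiating, at s2 staminode initiation was over and carpels were about to appear, at s3 the rims of the carpel primordia had risen, and at s4 the apex had been used up by the carpels. A library of s1, s2 or s3 pooled 2 buds from different plants, whereas a library of s4 held 1 bud, so that the number of buds and the last stage cannot be told apart in the spread of s4. The study took its buds from fewer plants than there were libraries, so that some libraries shared a plant. The labels do not tie libraries to plants.

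MADS-box transcription factors of these groups act together in complexes. In *Arabidopsis*, the *SEPALLATA* (*SEP*) genes form the E class of the floral organ identity model, and their proteins join those of the A, B and C classes in the tetramers that specify sepals, petals, stamens and carpels. *SEP3* is the member that bridges the most of these complexes in *Arabidopsis*, and the *SEP* genes cover for each other there to a large degree. *AGL6* is the sister lineage of *SEP*, and in grasses and petunia its members take part in floral meristem and organ identity. The *FUL-like* (*FL*) genes are the counterparts in basal eudicots of *APETALA1* and *FRUITFULL*, which in *Arabidopsis* act in floral meristem identity and in fruit development.

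The libraries held between 21502103 and 31647297 estimated counts, and no pair of them held equal values. A gene was tested where it exceeded 1 CPM (counts scaled to library size) in at least 1 library, which 20477 genes did, all 7 loci among them. Every library held counts of the 6 floral meristem markers examined, of both carpel markers, of both stomatal markers and of the anther marker. The summed level of the 6 meristem markers (*AqLFY*, *AqUFO1*, *AqSTM1*, *AqSTM2*, *AqWUS* and *AqKN*) fell to between 237 and 482 TPM (the share of all transcripts, a level corrected for transcript length and library size) at s4, against 1178 to 1767.5 TPM at s1. *AqLFY* alone had means of 1077 TPM at s1 and 312 TPM at s4, and so made up most of this sum. The *EXS* homolog that stood for anthers had 12.6 to 50.7 TPM at s4, against 2.88 to 6.32 TPM at s1. The levels of these meristem and anther markers thus changed across the stages. In whole buds a change in the number of cells of a type and a change in RNA per cell cannot be told apart. The part of either in the differences given here was not tested.

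Levels of the loci spanned a wide range. By mean TPM over the 32 libraries, *AqAGL6* ranked 751 of the 30023 transcripts, *AqSEP3* 998 and *AqSEP2a* 1824, ahead of *AqFL1* at 4869, *AqFL2* at 5078, *AqSEP1* at 8558 and *AqSEP2b* at 11037. The lowest estimated count of any of them in any library was 143, for *AqSEP1* in an s4 library, so that no value rested on a few reads. Reads that match more than 1 transcript are divided by estimate in these files, which leaves the levels of *AqSEP2a* against *AqSEP2b*, and of *AqFL1* against *AqFL2*, less certain than their sums.

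**Figure D1:**
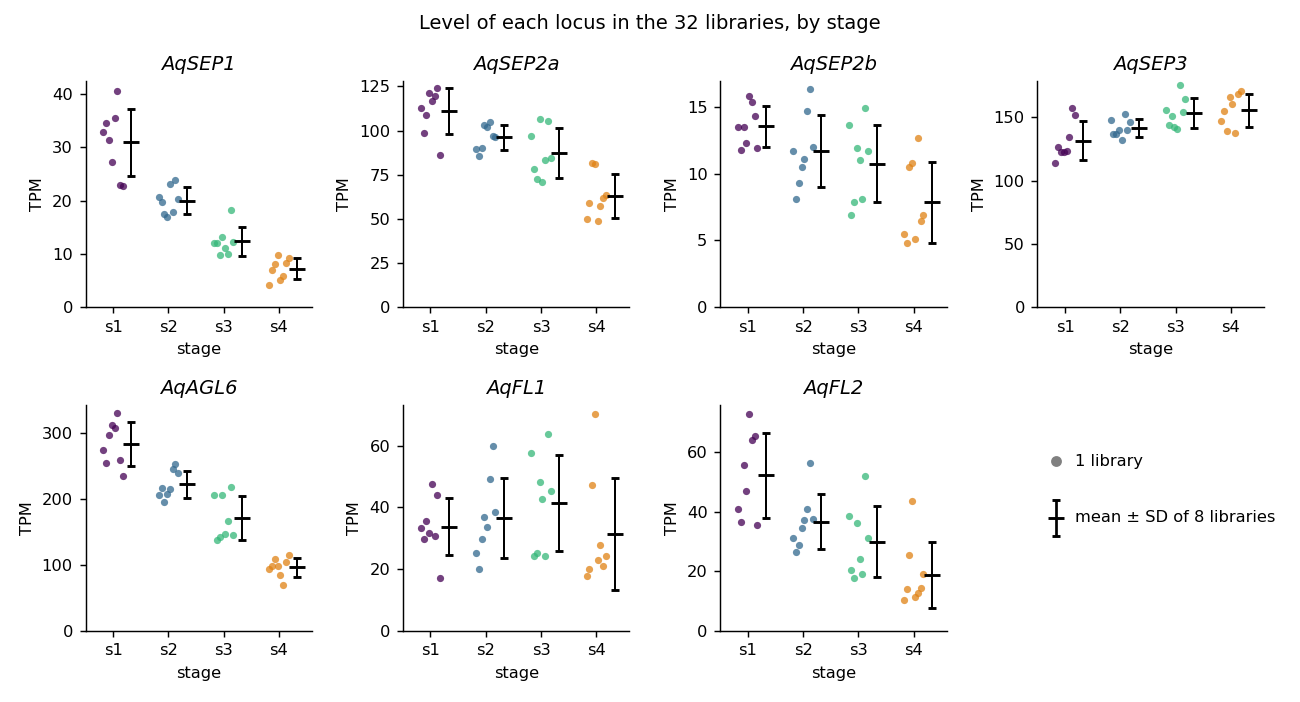
TPM of each of the 7 loci (vertical axis, starting at 0) in the 8 libraries of each stage (horizontal axis, s1 to s4), with each point 1 library and the bar the mean ± SD. The s4 points of *AqSEP1* and *AqAGL6* lie below all their earlier points, *AqSEP3* climbs slightly, and *AqFL1* scatters over the same range at every stage, with s4 replicate 4 at 70.4 TPM.

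*AqSEP1*, one of the *SEP* loci outside the *SEP3* lineage, showed the steepest decline of the 7. Its lowest, median and highest levels were 22.7, 32.04 and 40.6 TPM at s1, 16.9, 20.02 and 23.8 TPM at s2, 9.86, 11.996 and 18.2 TPM at s3, and 4.19, 7.55 and 9.78 TPM at s4. The libraries of s4 lay below every library of s1, s2 and s3, and only neighbouring stages before s4 overlapped. Relative to s1, *AqSEP1* was 4.06-fold lower at s4 (log2 fold change -2.02 with SE 0.16, edgeR adjusted p 3.1e-11) and 2.45-fold lower at s3 (-1.30 with SE 0.16, edgeR adjusted p 6.5e-07). It was the only locus of the 7 to pass the edgeR test in all 6 pairs of stages in the fit of all 32 libraries. The steps between neighbouring stages were of like size, at -0.61 for s2 against s1 (edgeR adjusted p 0.041), -0.69 for s3 against s2 (0.023) and -0.72 for s4 against s3 (0.0046), all as log2 fold changes. The first of these steps lay near the threshold and missed it in 13 of 32 fits that left out 1 library, with fold changes between -0.66 and -0.55 and adjusted p up to 0.12 (without replicates 1 to 6 of s1, replicates 1, 2, 3, 4, 6 and 8 of s2 or replicate 1 of s3). The step of s3 against s2 missed it without s2 replicate 5 or without replicate 3, 5 or 6 of s3, with adjusted p up to 0.059. That of s2 against s1 also missed it with no filter on low counts (edgeR adjusted p 0.055) and with the replicate number as a block (0.071). The step of s4 against s3 missed it in the edgeR fit of the 16 libraries of these stages alone (adjusted p 0.062).

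*AqAGL6*, the only member of its lineage in the set, was the most abundant of the 7 at s1 and declined at every stage. It had 235, 286 and 330 TPM as lowest, median and highest at s1, 195, 216 and 252 TPM at s2, 138, 157 and 218 TPM at s3, and 69.2, 98.5 and 114 TPM at s4. No s4 library reached the level of any earlier library, and no s3 library that of an s1 library. The locus was 2.76-fold lower at s4 than at s1 (log2 fold change -1.46, SE 0.11, edgeR adjusted p 1.1e-11). Against s2 it fell by 1.14 at s4 (SE 0.11, edgeR adjusted p 4.5e-09), and against s3 by 0.77 (SE 0.11, edgeR adjusted p 2.9e-05), both on the log2 scale. The early steps were smaller and did not pass, at -0.33 for s2 against s1 (edgeR adjusted p 0.19) and -0.37 for s3 against s2 (0.13).

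The paralogs *AqSEP2a* and *AqSEP2b* both had lower levels at s4 than at s1, and neither passed the test between s1, s2 and s3. The levels of *AqSEP2a* were 86.0, 115 and 124 TPM (lowest, median and highest) at s1, 85.8, 96.7 and 105 TPM at s2, 70.8, 83.8 and 106 TPM at s3, and 48.8, 60.3 and 81.4 TPM at s4. Its s4 libraries lay below all those of s1 and s2 and overlapped with those of s3, where 6 of 8 were below. *AqSEP2a* fell by 0.74 at s4 relative to s1 in log2 units (SE 0.11, edgeR adjusted p 6.3e-06). It also fell by 0.55 on that scale against s2 (edgeR adjusted p 0.00069) and by 0.42 against s3 (edgeR adjusted p 0.025). The last of these changes missed the threshold without replicate 1, 4 or 7 of s3 and without replicate 1 or 5 of s4, with fold changes from -0.50 to -0.37 over the 32 fits and adjusted p up to 0.071. It also missed the threshold in the edgeR fit of the 16 libraries of s3 and s4 alone (adjusted p 0.17). These changes stayed short of the fold change of 1 on that scale that a call of differential expression (DE) asked for here. *AqSEP2b*, with 11.8, 13.5 and 15.9 TPM at s1, 8.09, 11.4 and 16.4 TPM at s2, 6.88, 11.4 and 14.9 TPM at s3, and 4.80, 6.69 and 12.7 TPM at s4, was far less abundant. Here 1 of 8 s4 libraries, replicate 6, lay within the range of s1. *AqSEP2b* passed the test in 1 pair of stages, s4 against s1 (log2 fold change -0.69, SE 0.19, edgeR adjusted p 0.0059).

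*AqSEP3*, named after the *Arabidopsis* gene that bridges the most complexes, was the only locus of the 7 to pass the edgeR test with a higher level. It had 114, 125 and 158 TPM (lowest, median and highest) at s1, 132, 140 and 153 TPM at s2, 141, 153 and 176 TPM at s3, and 138, 158 and 171 TPM at s4. The ranges of every pair of stages overlapped, and 4 of 8 libraries of s4 exceeded every library of s1. The rise was small, at 0.32 on the log2 scale for s4 against s1 (SE 0.071, edgeR adjusted p 0.00092) and 0.25 for s3 against s1 (SE 0.071, edgeR adjusted p 0.022). The change of s3 against s1 no longer passed without replicate 1 or 3 of s1 or replicate 6 of s3, with edgeR adjusted p up to 0.057. Nor did it pass in the edgeR fit of the 16 libraries of these stages alone (adjusted p 0.065). After stage means were removed, the SD of its log2 CPM was 0.12, against 0.33 for the median gene tested, and only 3.98% of genes varied less. Genes of all levels entered this comparison, and it was not repeated among genes as abundant as *AqSEP3*. The other step that came near the threshold, s4 against s2 (log2 fold change 0.20, edgeR adjusted p 0.059), fell on the other side of it with DESeq2 (adjusted p 0.018).

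The *FUL-like* loci *AqFL1* and *AqFL2* parted. *AqFL1* had 17.3, 32.4 and 47.7 TPM (lowest, median and highest) at s1, 19.9, 35.1 and 59.9 TPM at s2, 24.2, 43.9 and 63.7 TPM at s3, and 17.9, 23.5 and 70.4 TPM at s4. The stages overlapped throughout, and *AqFL1* passed the edgeR test in 0 of 6 pairs of stages. In all 6 its p was above 0.05 before adjustment too, and DESeq2 called it in 0 of 6 as well. Its log2 fold change for s4 against s1 was 0.01 (SE 0.27, edgeR adjusted p 0.99). *AqFL2* had 35.5, 51.3 and 72.6 TPM at s1, 26.3, 35.8 and 56.2 TPM at s2, 17.8, 27.5 and 52.0 TPM at s3, and 10.2, 14.2 and 43.6 TPM at s4. Of its 8 libraries of s4, 7 lay below every library of s1, and the exception was replicate 4. *AqFL2* was 2.57-fold lower at s4 than at s1 (log2 fold change -1.36 with SE 0.27, edgeR adjusted p 0.00024), and it fell by 0.87 at s4 relative to s2 (SE 0.26, edgeR adjusted p 0.023). The change of s4 against s2 no longer passed without s2 replicate 7 or without replicate 1 or 5 of s4, with edgeR adjusted p up to 0.060. Nor did it pass in the edgeR fit of the 16 libraries of these stages alone (adjusted p 0.062). In s3 against s1 *AqFL2* reached -0.77 (SE 0.26, edgeR adjusted p 0.068). This change passed with DESeq2 (adjusted p 0.04) and in the edgeR fit of the 16 libraries of these stages alone (adjusted p 0.034). It also passed with the replicate number as a block (edgeR adjusted p 0.039).

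The library s4 replicate 4 held the highest level of both *FL* loci at that stage, 70.4 TPM of *AqFL1* and 43.6 TPM of *AqFL2*. Without it the means of s4 were 25.9 ± 9.92 TPM for *AqFL1* and 15.3 ± 5.22 TPM for *AqFL2* (SD, n = 7), against 31.4 ± 18.2 and 18.8 ± 11.1 TPM with it (SD, n = 8). The log2 fold change of *AqFL2* for s4 against s1 was then -1.71, and that for s4 against s2 was -1.21, which is past the fold change that DE asked for. *AqFL1* then had -0.31 for s4 against s1 (edgeR adjusted p 0.32).

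**Figure D2:**
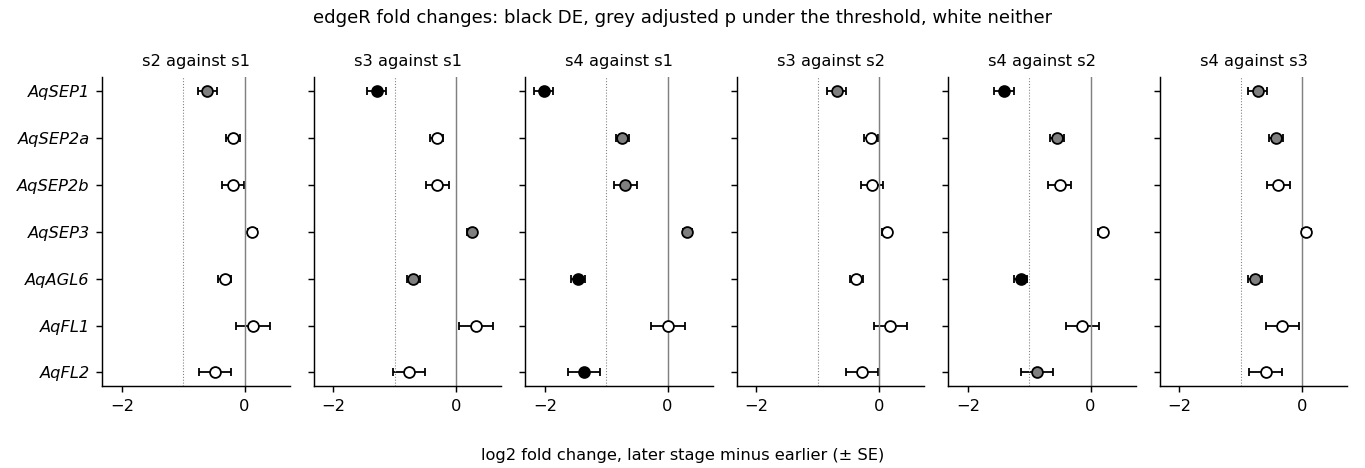
edgeR log2 fold change (horizontal axis, later stage minus earlier, bars ± SE) of the 7 loci (rows) in the 6 pairs of stages (panels). Filled black points are DE, grey points passed the adjusted p alone, and white points passed neither, with the dotted line at a fold change of -1 on the log2 scale. Black points appear for *AqSEP1* in 3 panels, for *AqAGL6* in 2 and for *AqFL2* in 1.

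Counted over the 7 loci, most changes that passed were declines involving s4. In s4 against s1, 5 of 7 loci passed with a lower level, where 10% of all genes tested did, and 1 passed with a higher level, where 15.2% of all genes did. DE with a lower level were 3 of 7 (*AqSEP1*, *AqAGL6* and *AqFL2*), against 1.94% of all genes. All 8 libraries of s4 lay below all 8 of s1 by TPM for 3 of 7 loci (*AqSEP1*, *AqSEP2a* and *AqAGL6*), against 3.27% of all genes. The median log2 fold change of the loci was -0.74, where that of all genes was 0.01.

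In s4 against s2, 4 of 7 loci passed with a lower level (5.96% of all genes), 2 of them as DE (1.09% of all genes), and 3 had all libraries of s4 below all of s2 (1.29% of all genes). In s4 against s3, 3 loci passed with a lower level (1.71% of all genes) and 0 were DE in the edgeR fit (0.308% of all genes), with DESeq2 calling 0 too, while 5 of 7 loci had a lower level with an unadjusted p under 0.05 (7.54% of all genes). Of the 7, 2 had all libraries of s4 below all of s3 (0.391% of all genes).

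Between the earlier stages fewer loci moved. In s3 against s1, 2 of 7 passed with a lower level (2.41% of all genes) and *AqSEP3* passed with a higher level (5.55% of all genes). DE was *AqSEP1* (0.606% of all genes lower and DE), and 2 loci, *AqSEP1* and *AqAGL6*, had all libraries of s3 below all of s1 (1.07% of all genes). In s2 against s1 and in s3 against s2, *AqSEP1* alone passed, both times with a lower level (0.332% and 0.230% of all genes). DE in these last pairs were 0 of 7 loci by edgeR and by DESeq2 (0.107% and 0.0537% of all genes lower and DE in edgeR), and 0 had ranges apart (0.239% and 0.0977% of all genes). At an unadjusted p under 0.05, 2 of 7 loci were lower in each of both pairs (2.57% and 3.19% of all genes).

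The order of the loci by level changed at its head. *AqAGL6* stood above *AqSEP3* at s1, with means of 284 ± 32.95 and 132 ± 15.4 TPM, and at s2, with 222 ± 21.0 and 142 ± 6.93 TPM (SD, n = 8 each), with no overlap at either stage. At s3 they could not be ordered, since *AqAGL6* was the higher in 4 of 8 libraries. At s4 *AqSEP3* stood above *AqAGL6* in 8 of 8 libraries, with means of 156 ± 13.1 and 96.7 ± 14.4 TPM and no overlap. *AqSEP2a* followed as the third at every stage. The foot of the order changed as well, since *AqSEP1* exceeded *AqSEP2b* without overlap at s1 (30.9 ± 6.29 and 13.6 ± 1.54 TPM) while *AqSEP2b* was the higher in 5 of 8 libraries at s4 (7.85 ± 3.03 and 7.18 ± 1.996 TPM for *AqSEP2b* and *AqSEP1*).

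The 4 *SEP* loci summed to 287 ± 18.4 TPM in s1 libraries, 269 ± 12.7 TPM in those of s2, 264 ± 22.0 TPM in those of s3 and 234 ± 20.7 TPM in those of s4 (SD over 8 libraries). Within this sum the share of *AqSEP3* grew with stage, at 45.9 ± 4.71%, 52.6 ± 1.998%, 58.4 ± 4.35% and 66.8 ± 4.91% at s1, s2, s3 and s4, while the share of *AqSEP1* shrank, at 10.8 ± 2.17%, 7.43 ± 0.95%, 4.65 ± 0.77% and 3.03 ± 0.61%. *AqSEP2a* held 38.6 ± 3.43% at s1 and 26.8 ± 3.72% at s4. Shares of 1 sum move against each other by construction, so that the ratios of single loci were tested instead.

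**Figure D3:**
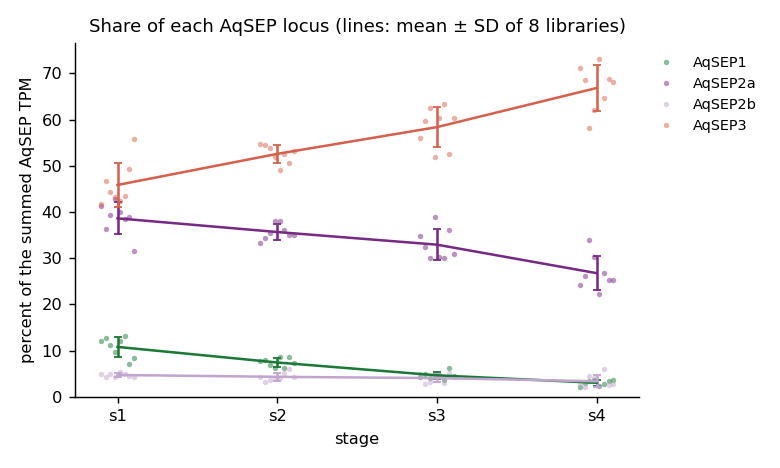
Share of each *AqSEP* locus in the summed TPM of the 4 (vertical axis, percent, starting at 0) by stage (horizontal axis), with points for single libraries and lines for the mean ± SD of 8 libraries. The line of *AqSEP3* climbs to 66.8% at s4 and that of *AqSEP1* falls to 3.03%.

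A locus that passed beside one that did not is not thereby shown to differ from it, so 4 ratios between loci were compared over the 6 pairs of stages, with exact two-sided permutation tests of the log2 ratio of (TPM + 0.1) and adjustment over the 24 tests. The smallest p that 8 against 8 libraries allow is 0.00016. *AqSEP1* over *AqSEP3* averaged 0.0459 at s4, against 0.240 at s1, with 0.142 at s2 and 0.0807 at s3. The difference of s4 from s1 was -2.36 on the log2 scale (95% interval -2.80 to -1.92, adjusted exact p 0.00037), and all 6 pairs of stages passed. *AqAGL6* over *AqSEP3* averaged 0.622 at s4, against 2.19 at s1, with 1.57 at s2 and 1.12 at s3. This is a difference of -1.80 on the log2 scale for s4 against s1 (95% interval -2.07 to -1.53, adjusted exact p 0.00037), and here too all 6 pairs passed, with every library of s4 below every library of the other stages.

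*AqFL2* over *AqFL1* averaged 0.606 ± 0.112 at s4, against 1.58 ± 0.328 at s1 (SD, n = 8 each), with 1.04 ± 0.168 at s2 and 0.726 ± 0.0897 at s3. At s1 *AqFL2* was the higher paralog in 8 of 8 libraries, at s2 *AqFL1* was in 5 of 8, and at s3 and s4 *AqFL1* was in 8 of 8. All 8 libraries of s4 and all 8 of s3 lay below all 8 of s1. The log2 ratio differed by -1.37 between s4 and s1 (95% interval -1.67 to -1.08, adjusted exact p 0.00037), by -1.10 between s3 and s1 (95% interval -1.37 to -0.85, adjusted exact p 0.00037) and by -0.59 between s2 and s1 (95% interval -0.88 to -0.32, adjusted exact p 0.0015). Between s4 and s3 it differed by -0.27 (95% interval -0.52 to -0.02, adjusted exact p 0.046), and this step passed in only 5 of 16 tests that left out 1 library. It ran from -0.33 to -0.21 over these tests, and without s4 replicate 4 it was -0.28 (adjusted exact p 0.057). The ratio of this library, 0.619, lay amid those of s4, 0.455 to 0.784, although its levels of both loci were the highest of the stage.

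*AqSEP2b* over *AqSEP2a* behaved otherwise, with means of 0.123 ± 0.0119 in s1, 0.121 ± 0.0250 in s2, 0.123 ± 0.0244 in s3 and 0.124 ± 0.0426 in s4 (SD, n = 8 each). No pair of stages passed. The difference between s4 and s1 was -0.03 on the log2 scale with a 95% interval of -0.33 to 0.30 (adjusted exact p 0.98), and the intervals of the 6 pairs lay between -0.38 and 0.39. Shifts of this ratio within the interval of each pair were not rejected by the exact test, so that changes of that size are not excluded.

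**Figure D4:**
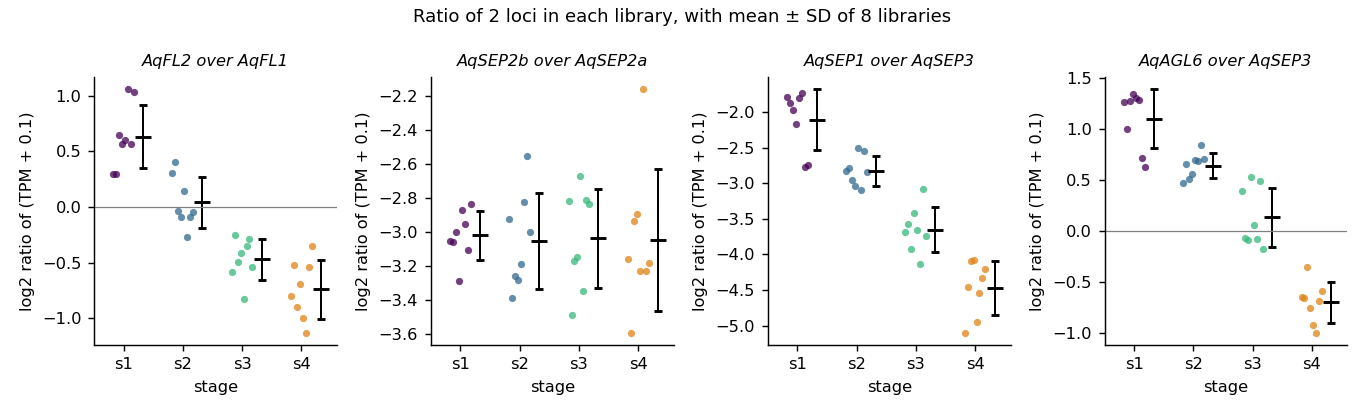
Log2 ratio of (TPM + 0.1) of 2 loci in each library (vertical axis, a scale of its own in each panel) by stage (horizontal axis), with points for libraries and bars for the mean ± SD of 8. *AqFL2* over *AqFL1*, *AqSEP1* over *AqSEP3* and *AqAGL6* over *AqSEP3* step down with stage, whereas *AqSEP2b* over *AqSEP2a* stays near -3.0 at all stages.

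Libraries of the same stage also differed, and the loci shared much of this. The largest pattern of variation left after fitting stage, the first principal component of the residuals over all genes tested with the 7 loci among them, held 38.7% of the residual variance. The s4 library replicate 4 scored highest on it, at 145, followed by s3 replicate 7 at 82.6 and s2 replicate 7 at 74.6. Deviations from the stage mean, in log2 CPM, were set against these scores and against each other over the 32 libraries, 28 relations in all, with permutations within stage and adjustment over the 28.

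*AqFL1* followed the component most closely (Pearson r 0.96, permutation p 1e-05, adjusted p 4.7e-05, Spearman rho 0.97, permutation p 1e-05, where 1e-05 is the smallest p that the permutations can give), with r between 0.91 and 0.99 within single stages and 0.96 without the 2 most extreme libraries. *AqFL2* had r 0.92 (permutation p 1e-05, adjusted p 4.7e-05, rho 0.88 with permutation p 1e-05), between 0.91 and 0.96 within stages and 0.85 without its own 2 farthest libraries. For *AqSEP2b* r was 0.85 (permutation p 1e-05, adjusted p 4.7e-05, rho 0.89 with permutation p 1e-05), between 0.77 and 0.95 within stages and 0.92 without its own 2 farthest libraries. *AqSEP3* showed no relation to it (r 0.03, permutation p 0.88, adjusted p 0.88, rho -0.12 with permutation p 0.53), with r between -0.19 and 0.28 within stages and 0.01 without its own 2 farthest libraries. Weaker relations to the component were those of *AqSEP2a* (r 0.70, permutation test adjusted p 0.00022), *AqSEP1* (r 0.56, adjusted p 0.0052) and *AqAGL6* (r 0.44, adjusted p 0.039). The component was drawn from all genes tested, and the share of them with r as high was not computed. What the component stands for was not tested.

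The paralogs *AqFL1* and *AqFL2* varied together within stages (r 0.90, permutation p 1e-05, adjusted p 4.7e-05, rho 0.86 with permutation p 1e-05), although their ratio moved between stages. Their r lay between 0.76 and 0.95 within single stages and was 0.87 without the 2 libraries farthest from the median of *AqFL1*. *AqFL2* and *AqSEP2a* had r 0.84 (permutation p 1e-05, adjusted p 4.7e-05, rho 0.86 with permutation p 1e-05), between 0.48 and 0.95 within stages and 0.78 without the 2 libraries farthest from the median of *AqSEP2a*. All of these loci also followed the component, and its part in their relations was not tested. How such r compares with that of other pairs of genes was not tested either. *AqSEP3* was related to none of the other 6 loci at an adjusted p under 0.05, with r between -0.10 and 0.16. The SD of the deviations was 0.53 for *AqFL1* and 0.50 for *AqFL2*, above those of 75.5% and 72.0% of all genes tested, against 0.20 for *AqAGL6* and 0.21 for *AqSEP2a*.

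The component was also added to the fit as a covariate, although it was derived from the same values, so that the p-values of that fit are too small by an unknown amount. *AqFL2* then had a log2 fold change of -1.01 in s4 against s2 (edgeR adjusted p 4.4e-09) and of -0.67 in s4 against s3 (edgeR adjusted p 1.7e-05). *AqFL1* then had 0.28 in s3 against s1 (edgeR adjusted p 0.011), -0.41 in s4 against s3 (edgeR adjusted p 0.00028) and -0.24 in s4 against s2 (edgeR adjusted p 0.017).

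**Figure D5:**
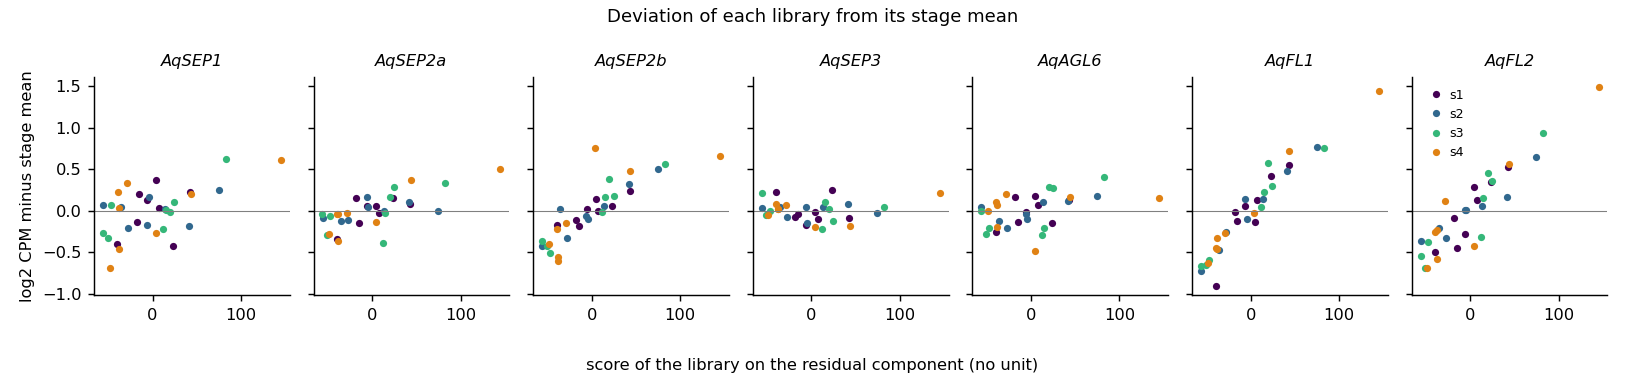
Log2 CPM of each locus minus the mean of its stage (vertical axis, shared by the 7 panels) against the score of the library on the residual component (horizontal axis, no unit), 1 point per library, coloured by stage. *AqFL1* and *AqFL2* lie along a rising line with s4 replicate 4 at its end, and *AqSEP3* lies flat near 0.

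The genes whose levels over the 32 libraries were most like those of each locus, by Pearson r of log2 CPM and with stage and within-stage differences both entering, differed between the loci. Closest to *AqAGL6* were *AqKN*, a class-I KNOX gene (r 0.97), *AqLFY*, the homolog of the floral meristem identity gene *LEAFY* (r 0.97), and *Aqcoe7G166200* (r 0.96). Closest to *AqSEP1* were *AqKN* (r 0.95), *Aqcoe5G104000* (r 0.94) and *AqAGL6* itself (r 0.94). For *AqSEP2a* they were *Aqcoe3G073000* (r 0.94), *AqFL2* (r 0.93) and *Aqcoe2G274900* (r 0.91).

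*AqFL1* and *AqFL2* shared none of their 3 closest genes, which were *Aqcoe1G419600* (r 0.97), *Aqcoe5G438100* (r 0.97) and *Aqcoe7G046100* (r 0.96) for *AqFL1*, and *Aqcoe1G387100*, *Aqcoe7G397900* and *Aqcoe3G109200* (each r 0.94) for *AqFL2*. Ranked by likeness to *AqFL1*, *AqFL2* came 3541 of the genes tested (r 0.63). For *AqSEP3* they were *Aqcoe1G010500* (r 0.82), *Aqcoe3G342500* (r 0.81) and *Aqcoe6G058200* (r 0.81), and with the other 6 loci its r ran from -0.67 to -0.03. *AqSEP2b* was most like *Aqcoe1G018100*, *Aqcoe5G266100* and *Aqcoe4G252000* (each r 0.95). The named genes depended on the measure and on single libraries. Without s4 replicate 4, 0 of the 3 genes named remained among the closest 3 for *AqSEP3*, 1 for *AqSEP1*, 1 for *AqFL2*, 2 for *AqFL1* and all 3 for the other loci. With Spearman's rho 0 of 3 remained for *AqSEP3*, 2 for *AqSEP1* and 1 for each of the other 5 loci. With deviations from the stage mean, 0 of 3 remained for *AqSEP1*, *AqSEP2b*, *AqSEP3* and *AqFL2*. On that measure 1 remained for *AqAGL6*, and 2 each for *AqSEP2a* and *AqFL1*.

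By locus number, 4 of the 7 loci stand within 5 steps of each other on chromosome 3, in the order *AqFL2*, *AqSEP2b*, *AqFL1* and *AqSEP2a*, each *FL* locus being the nearest of the 4 to a *SEP2* locus. Over the 32 libraries *AqFL2* and *AqSEP2b* had r 0.85, and *AqFL1* and *AqSEP2a*, the other such pair, r 0.52, while *AqFL2* and *AqSEP2a* had r 0.93. The 2 loci numbered between *AqSEP2b* and *AqFL1*, *Aqcoe3G373800* and *Aqcoe3G373900*, had means of 2.82 and 3.30 TPM at s4, against 4.32 and 6.05 TPM at s1. *AqSEP1* is numbered next to *AqCRC*, a carpel gene of the YABBY family, which had 30.5 TPM at s4, against 11.4 TPM at s1, the opposite direction (log2 fold change 1.47, edgeR adjusted p 0.0042).

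Of the other 13 type-II MADS-box loci, 7 passed with a lower level in s4 against s1 (10% of all genes) and 2 with a higher level (15.2% of all genes). The median log2 fold change of the 13 was -0.31. DE with a lower level (1.94% of all genes) were *AqSOC1.1*, a homolog of a flowering-time gene (log2 fold change -1.98), and the B-class gene *AqAP3-3* (-1.08). DE with a higher level (1496 of the 20477 genes tested) were *AqAGL12* (3.68) and *AqAG2* (1.96), a homolog of the C-class gene *AGAMOUS*. *AqAGL12* had low levels, with a mean of 0.466 TPM at s1 (0.274 to 1.07) and 5.90 TPM at s4 (0.930 to 11.4). The B-class partner *AqPI* fell by 0.31 on the log2 scale (edgeR adjusted p 0.00096), and the C-class homolog *AqAG1* had -0.10 (edgeR adjusted p 0.62). The 6 meristem markers were DE with a lower level in 6 of 6 cases (1.94% of all genes), with a median log2 fold change of -1.86, beside the median of -0.74 of the 7 loci.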

How the data were processed

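RNA-seq libraries of floral buds were made by the authors with SMART-Seq v4 and Nextera XT, and their reads were trimmed and pseudo-aligned with kallisto 0.46.1 to the 'Goldsmith' transcriptome. The deposited files give for each transcript an estimated count (expected count, not normalized), the TPM computed by the authors' kallisto run from count and effective length, and both lengths. Groups and replicate numbers came from the sample labels, and 0 columns of per-sample values were left out. The labels name no batch. SMART-Seq reads carry no molecular identifiers or strand mark.

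Estimated counts were rounded and tested with edgeR 4.0.16 (R 4.3.3, TMM, quasi-likelihood, 1 fit over 32 libraries with a term per stage), with Benjamini-Hochberg adjustment over the 20477 genes that exceeded 1 CPM in any library. A gene was called DE where its adjusted p was below 0.05 and its log2 fold change was 1 or more in size. Fold changes are the later stage minus the earlier. Log2 CPM had a prior count of 2. Ratios used TPM with 0.1 added and exact permutation tests (12870 regroupings), whose 95% intervals hold the shifts that the test does not reject, and deviations 100000 permutations within stage (numpy 2.4.6, scipy 1.17.1, pandas 2.3.3, matplotlib 3.10.9). The fit and the exact test were tested on simulated data. Replicates are libraries of separate buds, but the plants were fewer than the 32 libraries, so that some libraries shared a plant. The labels do not show which ones. The p-values treat libraries as independent and measure the spread between these libraries, not between plants.

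The loci named were the 7 members, the other 13 type-II MADS-box loci, loci within 5 numbers of a member, the 3 genes most alike and marker lists of meristem, carpel, stomata and anther cells. Members and lists were chosen with earlier results of these data known. Alternatives were DESeq2 1.42.0, length-scaled TPM counts, RLE size factors, 2 other filters, the 16 libraries of each pair alone, the replicate number as a block, the residual component as a covariate, a pseudocount of 1 TPM, and each library left out in turn. Sequences and positions were not used here, and of 24823 reference entries 0 carried these locus identifiers.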

Additional observations from a re-analysis of the deposited data

Results flagged for a closer look

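Of 44 groups of 8 values examined (7 loci and 4 ratios at 4 stages), 2 held a library far from the others by Dixon's ratio at its 95% critical value, where chance gives about 1 in 20. *AqSEP1* had 18.2 TPM in s3 replicate 7 (ratio 0.602), above the stage median of 11.996 TPM. *AqFL2* had 43.6 TPM in s4 replicate 4 (ratio 0.549), above the stage median of 14.2 TPM. These are the libraries of s3 and s4 with the highest scores on the residual component, 82.6 and 145.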

How the results depend on the processing

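The 7 loci over 6 pairs of stages gave 42 fold changes, and of their 336 values under 8 alternatives 307 kept direction and side of the threshold, 21 newly passed, 6 no longer passed and 2 changed sign. The cause of these changes was not tested. The sign changes were those of *AqFL1* in s4 against s1, at -0.061 with the replicate block and -0.13 with the residual component, and without 1 library it ran from -0.31 to 0.10. In s4 against s2 *AqFL1* ran from -0.45 to 0.0030 without 1 library. DE calls of the 7 loci held in all these fits, except that *AqFL2* in s4 against s2 became DE with the residual component and without s4 replicate 4.

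Lower loci in s2 against s1 (1 of 7) became 0 with no filter, 0 with the replicate block, 3 with the residual component and 0 to 1 without 1 library. In s3 against s1 the 2 lower loci became 4 with the block, 5 with the component and 2 to 4 without 1 library, and the 1 higher locus became 0 in the 16-library fit, 2 with the component and 0 to 1 without 1 library. *AqFL2* also passed there with a lower level with DESeq2 and in the 16-library fit. Smaller changes of these counts are not all listed. In s3 against s2 the 1 lower locus became 2 with the component and 0 to 2 without 1 library. In s4 against s3 the 3 lower loci became 1 in the 16-library fit, 6 with the component and 2 to 4 without 1 library. In s4 against s2 the 0 higher loci became 1 with DESeq2, RLE size factors, the 8-library filter or the component, and 0 to 1 without 1 library. Same-numbered libraries did not deviate together (17 of 48 pairs had a correlation over 0.1, from -0.457 to 0.622, and 4 of 32 libraries correlated best with their own number), so the numbers give no pairing.

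With a pseudocount of 1 TPM the log2 ratio of *AqFL2* over *AqFL1* differed by -0.25 in s4 against s3 (adjusted exact p 0.054), and without 1 library by -0.33 to -0.21. That of *AqSEP2b* over *AqSEP2a* differed with that pseudocount by 0.0090 in s3 against s1, 0.043 in s4 against s1 and 0.034 in s4 against s3. Without 1 library it ran from -0.10 to 0.015 (s2 against s1), -0.069 to 0.047 (s3 against s1), -0.15 to 0.051 (s4 against s1), -0.036 to 0.087 (s3 against s2), -0.12 to 0.084 (s4 against s2) and -0.14 to 0.068 (s4 against s3).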
